A study of Homo sapiens with 6 samples.

Results

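The enzymes of amino acid breakdown and of the urea cycle were examined in Huh7, an established cell line from a human hepatocellular carcinoma. The set is a list of 44 genes chosen by name, which leaves out the enzymes of tryptophan, and its members are all probe sets that carry one of these symbols in the platform annotation. Of the 44 genes 39 had probe sets with a symbol given once, 1 (PRODH) had only probe sets that repeat its symbol under different gene identifiers, and 4 (GLS2, GPT2, SDS and SDSL) are not analysed here. The 40 genes held 110 of the 49293 probe sets tested, and the 39 genes stand among 18132 genes tested. Total RNA came from cells in logarithmic growth, and the arrays form 2 groups of 3: control Huh7 cells, and Huh7 cells labelled as KCa3.1 silenced, with the genotype KCa3.1 knockdown. How the knockdown was made, and whether it is 1 clone or a pool, is not given in the sources used here. Nothing states that replicates came from separate cultures, so p-values measure the spread between these arrays, which may be technical.

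KCNN4, the gene of the silenced potassium channel KCa3.1, was not lower in the arrays labelled silenced (log2 change -0.000327, 95% interval -0.16 to 0.16, exact two-sided permutation p = 1, smallest possible 0.1). All directions below are therefore between arrays as labelled. Arrays of the same label correlated across probe sets with r between 0.406 and 0.67. Each value is a log2 RMA value relative to a baseline of its probe set. It shows differences between arrays and holds no expression level, so whether Huh7 cells express a given member, or the defining markers of hepatocytes, cannot be read from it. In RNA of a whole culture, fewer cells that express a gene and less RNA per cell cannot be told apart.

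The liver takes apart most amino acids that the body does not need. Aminotransferases move the amino group to glutamate, glutamate dehydrogenase and glutamine metabolism release or hold ammonia, and the urea cycle turns ammonia and aspartate into urea, with CPS1 and OTC in mitochondria and ASS1, ASL and arginase ARG1 in the cytosol. The carbon skeletons follow pathways of their own, such as those of tyrosine, histidine, methionine, lysine and the branched-chain amino acids leucine, isoleucine and valine. In hepatocellular carcinoma, urea cycle and other catabolic enzymes are often reduced compared with normal liver, and the fetal branched-chain aminotransferase BCAT1 is often raised.

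The members changed in both directions. Of the 39 genes 10 rose in the silenced-labelled arrays, 6 fell, and the remaining 23 missed the test threshold (limma, adjusted p under 0.05 over all genes). Over all genes tested 13.3% changed, 7.14% higher and 6.19% lower, and among the 39 members these shares were 41.0%, 25.6% and 15.4%. The median change of the members was 0.07 on the log2 scale and that of all genes -0.01. The median size of the change without its sign was 0.20 in the members and 0.08 in all genes. The 3 arrays of each group did not overlap in 24 members, or 61.5%, where 29.3% of all genes were without overlap. All genes include those that these cells may not express, whose number is unknown here. The members were chosen with earlier results of these data known. Their shares therefore cannot be read as those of a list chosen without sight of the data. Fits on 5 arrays called fewer members: 10 (6 higher) when control replicate 2 was omitted, 10 (6 higher) when silenced replicate 2 was, and 9 (5 higher) when silenced replicate 3 was. Omitting any of the other 3 arrays left 13.

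**Figure D1:**
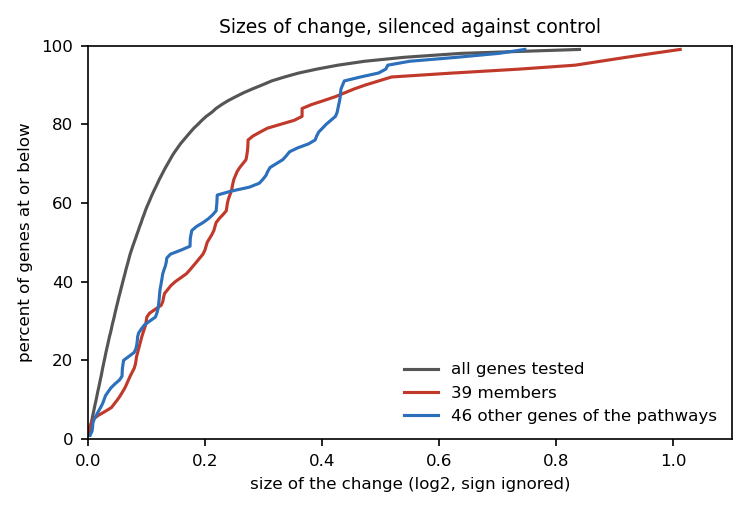
Share of genes (y axis, percent) whose change has at most the size on the x axis (log2, sign ignored), for all 18132 genes tested, the 39 members and 46 other genes of the same pathways. Changes larger than 0.4 were found in 6 members (15.4%), in 10 of the other pathway genes (21.7%) and in 5.66% of all genes.

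The widest changes lay at ornithine, histidine and arginine. The 2 largest falls were OAT and HAL and the 2 largest rises ARG2 and ASS1. OAT and HAL fell by 1.06 and 0.94 on the log2 scale, and ARG2 and ASS1 rose by 0.82 and 0.46. By the size of the change, 0.557% of all genes exceeded OAT, 0.756% exceeded HAL and 1.05% exceeded ARG2. The 16 members past the threshold were ARG2, ASS1, DBT, MCCC2, HGD, MCCC1, AASS, BCKDHB, GLUL and GLUD1, which were higher, and OAT, HAL, BCAT1, GOT1, BCKDHA and BCAT2, which were lower. Of these, ARG2, ASS1, OAT, HAL, HGD, GOT1, BCAT1 and DBT passed with any 1 array left out, and the other 8 each lost their call without at least 1 array.

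**Figure D2:**
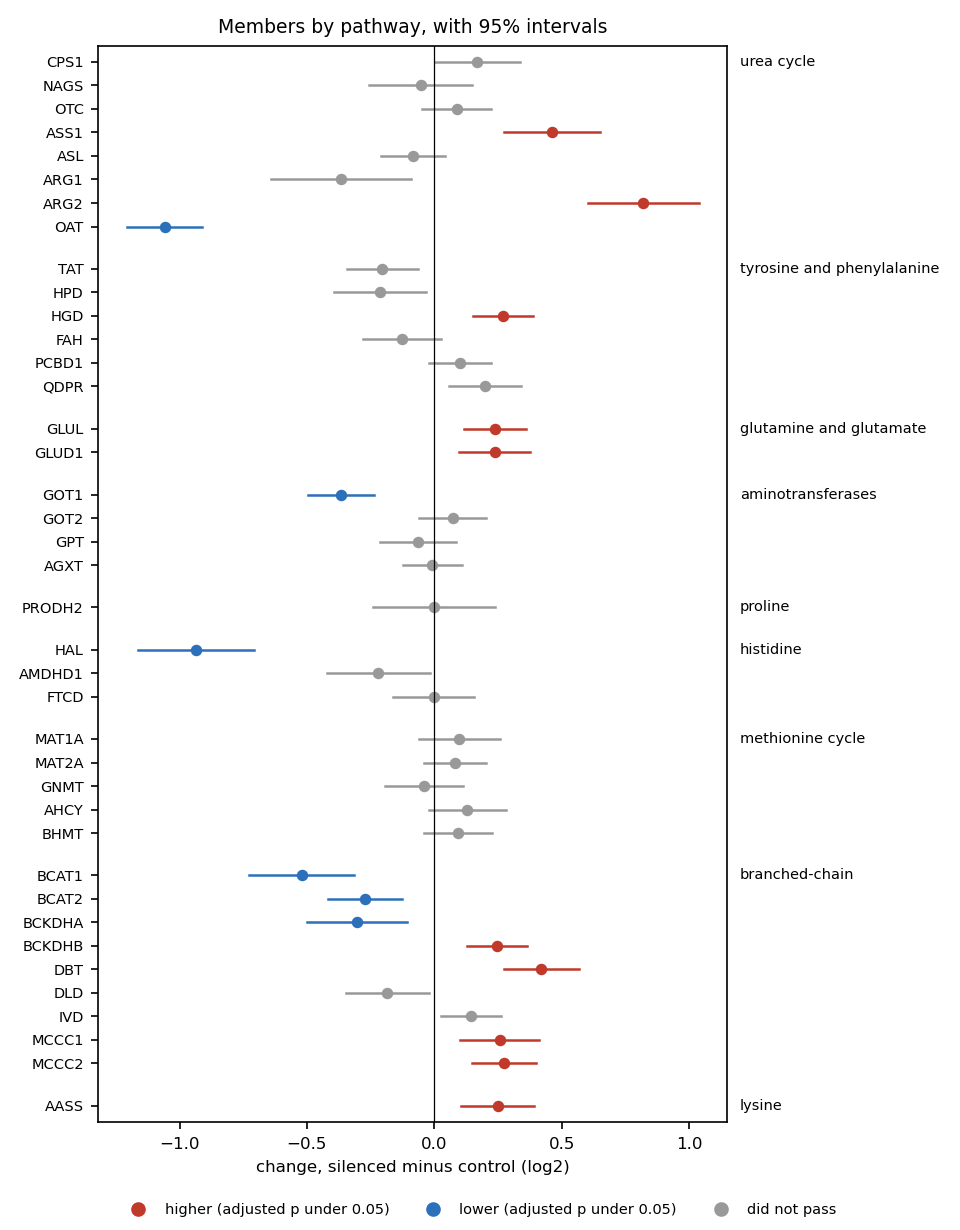
Change of each of the 39 members (x axis, silenced minus control, log2) with its 95% interval from limma, in groups by pathway. Red marks 10 higher genes, blue 6 lower genes and grey 23 that did not pass; the intervals of OAT (-1.21 to -0.91) and HAL (-1.16 to -0.71) lie farthest below 0 and that of ARG2 (0.60 to 1.04) farthest above it.

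**Figure D3:**
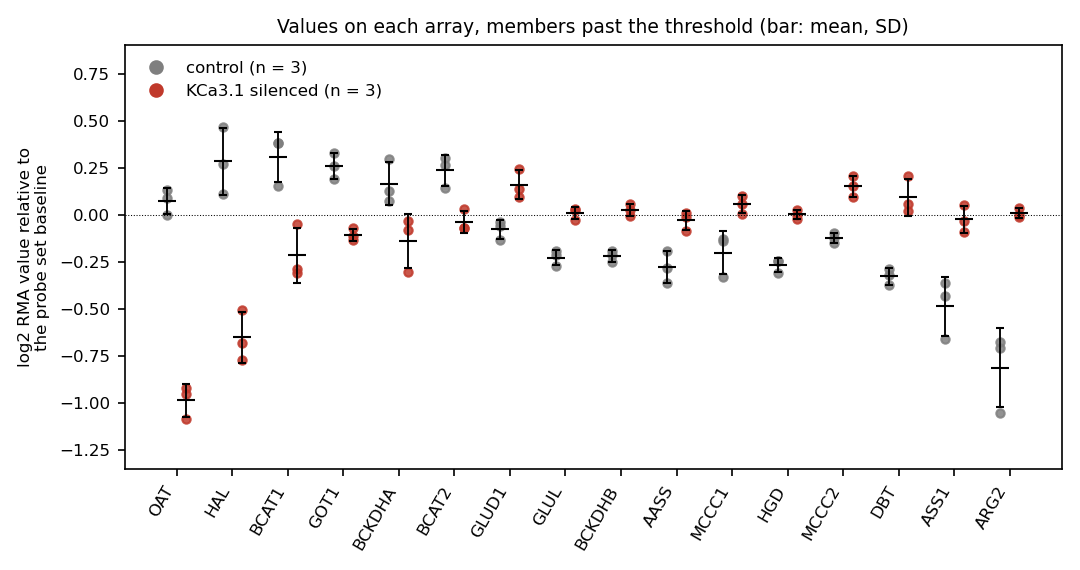
Values of the 16 members past the threshold on each array (y axis, log2 RMA value relative to the probe set's baseline), control in grey and silenced-labelled in red, with mean and SD (n = 3 each). In each of the 16 genes the groups are separate, with OAT at -1.08 to -0.92 and ARG2 at -0.01 to 0.04 in the silenced-labelled arrays.

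The promoters of the 2 largest rises and the 2 largest falls are shown, because these 4 genes lead the set in each direction. They come from RefSeq (GRCh38.p14), where 35 of the 39 measured members had an entry, and reach from 250 bases before to 50 bases after the start site, 5′ to 3′ on the strand of the gene. Capitals mark matches on either strand to 8 short motifs. General promoter elements are the box spelled TATAAA, the box spelled CCAAT and the Sp1 motif GGGCGG. The motif CACGTG is an E-box, and TGACG is part of the cAMP response element. Factors of the AP-1 family bind TGANTCA, forkhead factors of the FOXA family bind TGTTTAC, and many nuclear receptors bind AGGTCA.
ARG2, chr14:67619670-67619969, plus strand: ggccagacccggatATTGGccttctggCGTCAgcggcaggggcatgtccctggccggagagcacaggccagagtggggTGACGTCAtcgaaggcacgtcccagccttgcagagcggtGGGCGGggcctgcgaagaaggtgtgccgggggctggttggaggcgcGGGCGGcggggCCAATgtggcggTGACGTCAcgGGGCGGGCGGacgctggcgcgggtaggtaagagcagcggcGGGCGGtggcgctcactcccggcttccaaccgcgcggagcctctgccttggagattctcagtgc
ASS1, chr9:130444711-130445010, plus strand, the downstream of 2 overlapping entries: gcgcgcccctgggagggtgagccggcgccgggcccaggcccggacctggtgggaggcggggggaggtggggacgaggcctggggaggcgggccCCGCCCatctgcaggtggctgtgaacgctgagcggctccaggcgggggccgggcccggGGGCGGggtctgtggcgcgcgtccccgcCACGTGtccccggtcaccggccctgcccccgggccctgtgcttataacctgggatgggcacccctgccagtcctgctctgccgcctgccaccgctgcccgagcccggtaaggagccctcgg
OAT, chr10:124418874-124419173, minus strand: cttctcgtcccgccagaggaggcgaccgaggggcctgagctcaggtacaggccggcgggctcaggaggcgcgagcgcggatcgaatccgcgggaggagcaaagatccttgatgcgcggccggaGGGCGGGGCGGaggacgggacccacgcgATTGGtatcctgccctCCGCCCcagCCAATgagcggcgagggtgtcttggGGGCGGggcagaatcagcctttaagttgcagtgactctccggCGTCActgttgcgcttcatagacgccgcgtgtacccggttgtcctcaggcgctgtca
HAL, chr12:95996295-95996594, minus strand: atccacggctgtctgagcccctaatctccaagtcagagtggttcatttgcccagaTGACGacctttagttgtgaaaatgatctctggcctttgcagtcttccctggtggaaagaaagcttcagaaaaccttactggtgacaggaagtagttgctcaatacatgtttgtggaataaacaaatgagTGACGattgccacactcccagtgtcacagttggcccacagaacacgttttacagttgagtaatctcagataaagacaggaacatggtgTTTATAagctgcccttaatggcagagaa
The ARG2 promoter held 5 matches to GGGCGG, of which the pair at -54 and -50 overlap, and the full palindrome TGACGTCA at 2 places. Of all 35116 promoters of this length 1.85% hold this palindrome at least once, and the share with 2 places was not counted. That palindrome was searched after its parts had been seen. The OAT promoter held CCAAT matches at -99 on the opposite strand and at -74, and 4 GGGCGG matches. The ASS1 promoter held CACGTG at -71, a palindromic match on both strands. HAL differed from these in base composition, with 44.7% G and C against 71% in ARG2, and held TATAAA on the opposite strand at 23 bases past the start.

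Among the 14 members past the threshold with a promoter entry, 11 held CCAAT, 11 GGGCGG, 9 TGACG, 4 CACGTG, 3 AGGTCA and 2 TATAAA, and none (0) held TGANTCA or TGTTTAC. Among the 21 members that did not pass, the counts in the same order were 8, 13, 5, 2, 1 and 5, then 3 for TGANTCA and 0 for TGTTTAC. Of all 35116 promoters 34.6% held CCAAT, 45.0% GGGCGG, 24.6% TGACG, 7.26% CACGTG, 13.8% AGGTCA, 11.5% TATAAA, 7.71% TGANTCA and 3.42% TGTTTAC. Some genes have several start sites, and a gene was counted where any entry matched. Counted by gene in this way, 39.7% of 27305 genes held CCAAT, 48.3% GGGCGG, 28.4% TGACG, 8.77% CACGTG and 16.5% AGGTCA. The other shares by gene were 14.0% for TATAAA, 9.37% for TGANTCA and 4.19% for TGTTTAC. The counts of members are by gene and match these shares in kind. The motifs were chosen after the values of the genes were seen. A match is a run of letters only.

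Among the 8 members grouped with the urea cycle ASS1 and ARG2 were higher and OAT was lower. CPS1, NAGS, OTC, ASL and ARG1 did not pass. ARG2 and OAT are mitochondrial enzymes beside the cycle, so of the cycle itself only ASS1 passed. ASS1 joins citrulline and aspartate in the cytosol. Its control values were -0.66, -0.36 and -0.43 and its silenced-labelled values -0.03, -0.09 and 0.05. The control arrays were lower throughout, and the gene rose 1.38-fold (0.46 ± 0.0832 SE on the log2 scale, limma adjusted p = 0.00636). Both of its probe sets are of the types that can match other transcripts, and ASS1 has many processed pseudogenes, so the source of the signal is uncertain. ASL, which splits the product of ASS1, had a change of -0.08 (95% interval -0.21 to 0.04).

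ARG2 encodes the mitochondrial arginase, found in many tissues, and ARG1 the cytosolic arginase of the urea cycle. ARG2 read -1.05, -0.71 and -0.68 in control arrays and -0.01, 0.00 and 0.04 in silenced-labelled arrays, with means of -0.81 ± 0.21 and 0.01 ± 0.0264 (SD, n = 3). It was 1.77-fold higher, the largest rise of the set, with no overlap (SE 0.0959, limma adjusted p = 0.000631). Both of its probe sets passed, with changes of 0.85 and 0.80. ARG1 moved the other way in value, from 0.00, 0.41 and -0.12 to -0.29, -0.30 and -0.21. Its change of -0.37 did not pass (95% interval -0.64 to -0.09, limma adjusted p = 0.087), and its control arrays spread most widely of all members (SD 0.278). The change of ARG1 passed without control replicate 3 (limma adjusted p = 0.0408) and, with all arrays, after quantile normalization (-0.41, limma adjusted p = 0.0498). The changes of the 2 arginases differed by 1.19 on the log2 scale without overlap of the arrays (exact two-sided permutation p = 0.1, the smallest possible, and 0.133 after adjustment over the 8 pairs compared). Those pairs were chosen after the values were seen.

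OAT encodes ornithine aminotransferase, the mitochondrial enzyme that links ornithine with glutamate and proline. Its values were 0.00, 0.09 and 0.13 in control arrays and -1.08, -0.95 and -0.92 in silenced-labelled arrays. All silenced-labelled arrays lay far below the controls. The fall was 2.08-fold (-1.06 ± 0.0653 SE on the log2 scale, limma adjusted p = 1.94e-05), measured by 1 probe set. Among all 18132 genes the change of OAT was at rank 48 from the lowest. The probe set is of a type that can match other transcripts, so the source of the signal is uncertain. CPS1, which makes carbamoyl phosphate at the entry of the cycle, had a change of 0.17 (95% interval 0.00 to 0.34, limma adjusted p = 0.198) with overlapping groups. OTC, which makes citrulline, had 0.09 (-0.05 to 0.22), and NAGS, which makes the activator of CPS1, had -0.05 (-0.25 to 0.15). Of 4 other genes tied to the cycle, SLC25A15, the mitochondrial ornithine carrier, rose by 0.22 (limma adjusted p = 0.0469). Omitting any of the 6 arrays ended that call (change 0.18 to 0.24, limma adjusted p = 0.0707 to 0.179). SLC25A12, SLC25A13 and CA5A did not pass, with changes of -0.13, 0.09 and 0.06.

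Both measured genes of glutamine and glutamate rose by small amounts. GLUL, glutamine synthetase, which in the liver marks cells around the central vein, read -0.27, -0.19 and -0.21 in control and -0.03, 0.03 and 0.03 in silenced-labelled arrays (change 0.24, SE 0.0534, limma adjusted p = 0.0178). Omitting control replicate 3 or silenced replicates 2 or 3 ended the call (change 0.23 to 0.25, limma adjusted p = 0.0523 to 0.0781). GLUD1, glutamate dehydrogenase, read -0.13, -0.06 and -0.04 in control and 0.14, 0.10 and 0.25 in silenced-labelled arrays (change 0.24, SE 0.0611, limma adjusted p = 0.0343). It lost its call without any control array and without silenced replicates 1 or 3 (change 0.19 to 0.26, limma adjusted p = 0.0669 to 0.14). In neither gene did the groups overlap. GLUD1 is nearly identical to GLUD2, and probe sets of the types that 2 of its 3 belong to can match other genes, so the source of that signal is uncertain.

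Of the aminotransferases, GOT1 was lower and GOT2, GPT and AGXT did not pass. GOT1, the cytosolic aspartate aminotransferase, had control values of 0.19, 0.33 and 0.26 and silenced-labelled values of -0.11, -0.13 and -0.07. All controls were higher, and the gene fell by 0.37 on the log2 scale, or 1.29-fold (SE 0.0574, limma adjusted p = 0.00315). Its mitochondrial counterpart GOT2 read -0.13, 0.01 and -0.03 in control and 0.03, -0.01 and 0.05 in silenced-labelled arrays, which overlap (change 0.07, 95% interval -0.06 to 0.20). The changes of the 2 genes differed by -0.44 (GOT1 minus GOT2) without overlap of the arrays (exact two-sided permutation p = 0.1, the smallest possible, 0.133 adjusted). GPT, an alanine aminotransferase, had a change of -0.06 (-0.21 to 0.08) and AGXT, which removes glyoxylate in peroxisomes, had -0.01 (-0.12 to 0.11). Of the other aminotransferases on the neighbour list both rose, AADAT of lysine and kynurenine breakdown by 0.79 (SE 0.0824, limma adjusted p = 0.000338) and AGXT2, of mitochondria, by 0.51 (SE 0.0593, limma adjusted p = 0.000637).

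In histidine breakdown, HAL was lower and the following enzymes did not pass. HAL, histidine ammonia-lyase, makes urocanate and is expressed in liver and skin. It read 0.11, 0.47 and 0.27 in control and -0.68, -0.77 and -0.50 in silenced-labelled arrays. The groups were far apart, and the fall was 1.91-fold (-0.94 ± 0.1 SE on the log2 scale, limma adjusted p = 0.000386), with all 3 probe sets past the threshold at -1.01, -0.89 and -0.90. AMDHD1, imidazolonepropionase, lies downstream and had a change of -0.22 with overlapping groups (95% interval -0.42 to -0.02, limma adjusted p = 0.164). Without control replicate 1 it passed, with a change of -0.32 (limma adjusted p = 0.0227). UROC1, urocanate hydratase, between the 2, had -0.08, and FTCD, which hands the last fragment to folate, had -0.00 (-0.16 to 0.16). The changes of HAL and AMDHD1 differed by -0.72 (HAL minus AMDHD1) without overlap of the arrays (exact two-sided permutation p = 0.1, the smallest possible, 0.133 adjusted).

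The tyrosine pathway held 1 higher gene, HGD, among 6, where 13.3% of all genes changed and 7.14% were higher. The enzymes before and after HGD lay on the other side of 0 in value and did not pass. HGD, homogentisate dioxygenase, which opens the aromatic ring, read -0.31, -0.25 and -0.25 in control and -0.02, 0.03 and 0.00 in silenced-labelled arrays. It rose by 0.27 (SE 0.0523, limma adjusted p = 0.00906), with tight groups that did not overlap. Its 1 probe set is of a type that can match other transcripts. TAT, tyrosine aminotransferase, which glucocorticoids induce in hepatocytes, had a change of -0.20 (95% interval -0.34 to -0.06, limma adjusted p = 0.0651), without overlap of its groups, and passed after quantile normalization (limma adjusted p = 0.0457). HPD, which makes homogentisate, had -0.21 (-0.40 to -0.03) and passed without control replicate 3 (limma adjusted p = 0.0482). FAH, the last enzyme, had -0.13 (-0.28 to 0.03) with overlapping groups, and its 2 probe sets differed in sign, at 0.06 and -0.32. PCBD1 and QDPR, which recycle the cofactor tetrahydrobiopterin, had 0.10 and 0.20 and did not overlap between groups, but did not pass (limma adjusted p = 0.306 and 0.0755). A further probe set of QDPR, left out because it repeats the symbol, had -0.01. With that probe set counted, QDPR had 0.13 (95% interval -0.01 to 0.27, limma adjusted p = 0.235). Of 4 measured neighbours, GCH1, which makes tetrahydrobiopterin, rose by 0.30 (limma adjusted p = 0.0169) and GCHFR, its feedback regulator, fell by 0.35 on the log2 scale (limma adjusted p = 0.015). Without control replicate 2 or silenced replicate 2 or 3 neither passed, and without control replicate 3 GCHFR did not (change of GCH1 0.28 to 0.31, of GCHFR -0.35 to -0.28).

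All 9 members of branched-chain breakdown had groups that did not overlap, and 7 of them passed, 4 higher and 3 lower. Of all genes tested 29.3% did not overlap and 13.3% passed. Among the 7, only BCAT1 and DBT passed with any 1 array left out. The 2 aminotransferases that start the pathway were both lower. BCAT1, the cytosolic form, read 0.38, 0.15 and 0.38 in control and -0.05, -0.31 and -0.29 in silenced-labelled arrays. The fall was 1.43-fold (-0.52 ± 0.0911 SE on the log2 scale, limma adjusted p = 0.00545), and all 5 probe sets passed. BCAT2, the mitochondrial form, read 0.14, 0.30 and 0.26 in control and 0.03, -0.07 and -0.07 in silenced-labelled arrays (change -0.27, SE 0.0635, limma adjusted p = 0.0216). The call of BCAT2, measured by 1 probe set, was lost without replicate 2 or 3 of either group (change -0.26 to -0.24, limma adjusted p = 0.0772 to 0.0879). Their changes differed by -0.25, BCAT1 minus BCAT2, with overlap (exact two-sided permutation p = 0.2).

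The branched-chain keto acid dehydrogenase, the committed step, is a complex of a decarboxylase made from BCKDHA and BCKDHB, a core acyltransferase DBT and the dehydrogenase DLD, which other complexes share. Of its 4 subunits DBT and BCKDHB were higher, BCKDHA was lower and DLD did not pass. DBT read -0.29, -0.37 and -0.32 in control and 0.20, 0.06 and 0.02 in silenced-labelled arrays, all above the controls. The rise was 1.34-fold (0.42 ± 0.0648 SE on the log2 scale, limma adjusted p = 0.00292), with 5 of 6 probe sets past the threshold. BCKDHB read -0.22, -0.25 and -0.19 against 0.03, 0.06 and -0.01, a rise of 0.25 (SE 0.0523, limma adjusted p = 0.0145). That call was lost without control replicate 2 or silenced replicate 2 (change 0.23, limma adjusted p = 0.0525 to 0.0564).

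BCKDHA, its partner, read 0.13, 0.29 and 0.08 in control and -0.03, -0.30 and -0.08 in silenced-labelled arrays. This gene has 1 probe set, of a type that can match other transcripts. In the fit over all probe sets that probe set did not pass (limma adjusted p = 0.0783). In the fit over genes, the fall of BCKDHA by 0.31 on the log2 scale lay at the threshold (SE 0.0865, limma adjusted p = 0.0497). The call was lost without any control array and without silenced replicates 2 or 3 (change -0.35 to -0.22, limma adjusted p = 0.0662 to 0.164), and in 5 other settings. DLD read 0.13, -0.10 and 0.00 against -0.10, -0.17 and -0.24 and did not pass (change -0.18, 95% interval -0.35 to -0.02, limma adjusted p = 0.147). The changes of BCKDHB and BCKDHA differed by 0.55 and those of DBT and DLD by 0.60, each without overlap of the arrays (exact two-sided permutation p = 0.1 each, the smallest possible, 0.133 adjusted). PPM1K, the phosphatase that activates the complex, rose by 0.31 (SE 0.0566, limma adjusted p = 0.0069). Its 3 probe sets ranged from 0.02 to 0.63, and 1 passed alone. BCKDK, the kinase that inhibits the complex, had a change of -0.02 (95% interval -0.14 to 0.09).

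**Figure D4:**
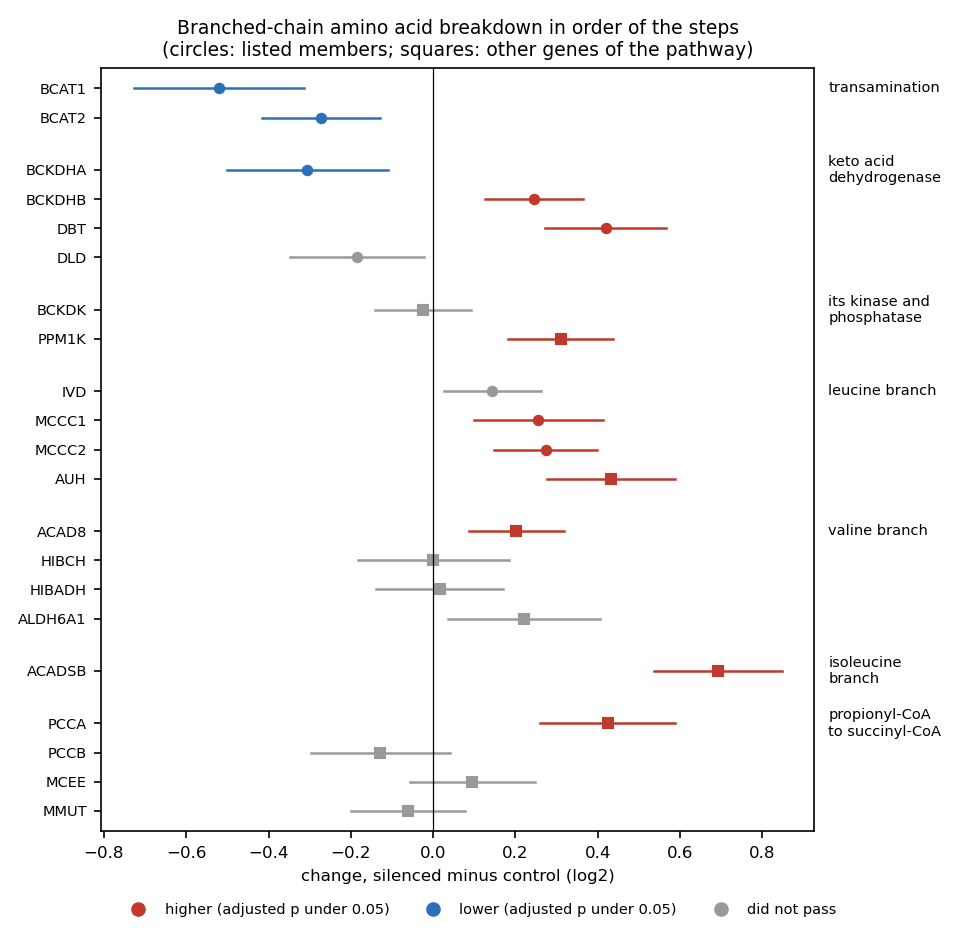
Change of 9 members (circles) and 12 other genes (squares) of branched-chain amino acid breakdown, in order of the steps (x axis, silenced minus control, log2), with 95% intervals from limma. The aminotransferases BCAT1 (-0.52) and BCAT2 (-0.27) lie below 0, and DBT (0.42), PPM1K (0.31), AUH (0.43), ACADSB (0.69) and PCCA (0.42) above it.

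In the leucine branch both subunits of methylcrotonoyl-CoA carboxylase, a biotin enzyme, were higher. MCCC2 read -0.15, -0.09 and -0.12 in control and 0.10, 0.15 and 0.21 in silenced-labelled arrays (change 0.27, SE 0.0549, limma adjusted p = 0.0109). Omitting silenced replicate 3 ended this call (change 0.25, limma adjusted p = 0.0576). MCCC1 read -0.33, -0.13 and -0.14 against 0.06, 0.01 and 0.10 (change 0.26, SE 0.0687, limma adjusted p = 0.0396). The 3 arrays of each label stood apart in both genes, but MCCC1 did not pass without any of the 6 arrays in turn (change 0.19 to 0.29, limma adjusted p = 0.0559 to 0.14). Their changes differed by 0.02 (exact two-sided permutation p = 0.8). IVD, isovaleryl-CoA dehydrogenase, had 0.14 (95% interval 0.03 to 0.26, limma adjusted p = 0.113).

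Of 12 other measured genes of branched-chain breakdown 5 were higher, 0 lower and 7 did not pass. Over all genes tested 7.14% were higher and 6.19% lower. ACADSB, the dehydrogenase of the isoleucine branch, rose by 0.69 (SE 0.0683, limma adjusted p = 0.000251). AUH, the next enzyme of the leucine branch, rose by 0.43 and PCCA, a subunit of propionyl-CoA carboxylase, by 0.42 (limma adjusted p = 0.00327 and 0.00468). PCCB, the partner of PCCA, had -0.13 (95% interval -0.30 to 0.04). ACAD8, of the valine branch, rose by 0.20 (limma adjusted p = 0.0298) and did not pass without any of the 6 arrays in turn (change 0.19 to 0.21, limma adjusted p = 0.0605 to 0.115).

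In lysine breakdown AASS, which joins lysine to alpha-ketoglutarate, read -0.28, -0.36 and -0.19 in control and 0.01, -0.08 and -0.01 in silenced-labelled arrays. The controls were lower throughout (change 0.25, SE 0.0627, limma adjusted p = 0.0308), but none (0) of its 4 probe sets passed alone, and the call was lost without each array except control replicate 3 (change 0.21 to 0.28, limma adjusted p = 0.0509 to 0.106). DHTKD1, further down the same pathway, rose by 0.43 (SE 0.0555, limma adjusted p = 0.00113), and GCDH and ALDH7A1 had 0.18 and 0.12. In proline breakdown PRODH2, which acts on hydroxyproline, had -0.00 (95% interval -0.24 to 0.24). PRODH, proline dehydrogenase, had changes of 0.00 and -0.16 in its 2 probe sets, neither of which passed. ALDH4A1, the enzyme that follows it, rose by 0.43 (SE 0.062, limma adjusted p = 0.00198), with 0.10 and 0.76 in its 2 probe sets, of which the second passed alone. PYCR1, which makes proline, fell by 0.33 (SE 0.0589, limma adjusted p = 0.00577), with 5 of 6 probe sets past the threshold and a change of 0.10 in the remaining one.

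None of the 5 members of the methionine cycle passed (0, limma), and their changes ran from -0.04 to 0.13. MAT1A, the methionine adenosyltransferase of adult liver, had 0.10 (95% interval -0.06 to 0.26), and MAT2A, the form that prevails in fetal liver and hepatoma, 0.08 (-0.04 to 0.20). Of the 6 probe sets of MAT2A 1 was higher alone, by 0.37, and with the most variable probe set taken for each gene MAT2A passed (limma adjusted p = 0.0403). GNMT, glycine N-methyltransferase, had -0.04 (-0.19 to 0.11), AHCY, which splits adenosylhomocysteine, 0.13 (-0.02 to 0.28), and BHMT, which remethylates homocysteine with betaine, 0.09 (-0.04 to 0.23). BHMT2, a relative of BHMT, rose by 0.41 (SE 0.0565, limma adjusted p = 0.00163), the only one of the 7 measured neighbours of this cycle to pass.

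Serine and glycine, whose members SDS and SDSL are not analysed here, were represented by 9 neighbours, of which 3 were higher, 2 lower and 4 did not pass. GAMT, which makes creatine, rose by 0.44 (limma adjusted p = 0.00183), GLDC, of the glycine cleavage system, by 0.39 (limma adjusted p = 0.0131), and DMGDH, which degrades dimethylglycine, by 0.39 (limma adjusted p = 0.0375). SHMT2, the mitochondrial serine hydroxymethyltransferase, fell by 0.51 (limma adjusted p = 0.0019) and SRR, serine racemase, fell by 0.29 (limma adjusted p = 0.0337). DMGDH did not pass without each array except control replicate 3, and SRR without each except control replicate 1 (change of DMGDH 0.27 to 0.44, of SRR -0.29 to -0.22). In all, 15 of 46 measured neighbours were higher, 4 lower and 27 did not pass, with a median change of 0.11. Of all genes tested 7.14% were higher and 6.19% lower. A further 8 neighbours are not analysed here. Omitting replicate 2 or 3 of either group left 2 lower neighbours.

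Single probe sets bore on how even the changes were. Of the 110 probe sets of the members 22 were higher and 11 lower, or 33 in all, where 10.7% of all probe sets changed, and no gene had probe sets past the threshold in both directions (0). DBT ranged from -0.00 to 0.67 over its 6 probe sets. In GLUL 3 probe sets rose, by 0.36, 0.42 and 0.39, and the other 2 had -0.03 and 0.06. BCKDHB rose by 0.36 and 0.41 in 2 probe sets and had 0.07 and 0.14 in the others. Specific here means only a name without the suffix _s_, _x_ or _a_. With specific probe sets alone DBT had 0.18 and BCKDHB 0.07, and neither passed (limma adjusted p = 0.179 and 0.74). The 2 higher probe sets of BCKDHB carry the suffix _a_ and were left out there. Probe sets of a gene can lie in different transcripts and share probes, so they are not replicates. An exact 0 on at least 1 array occurred in 79 of the 110 probe sets.

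**Figure D5:**
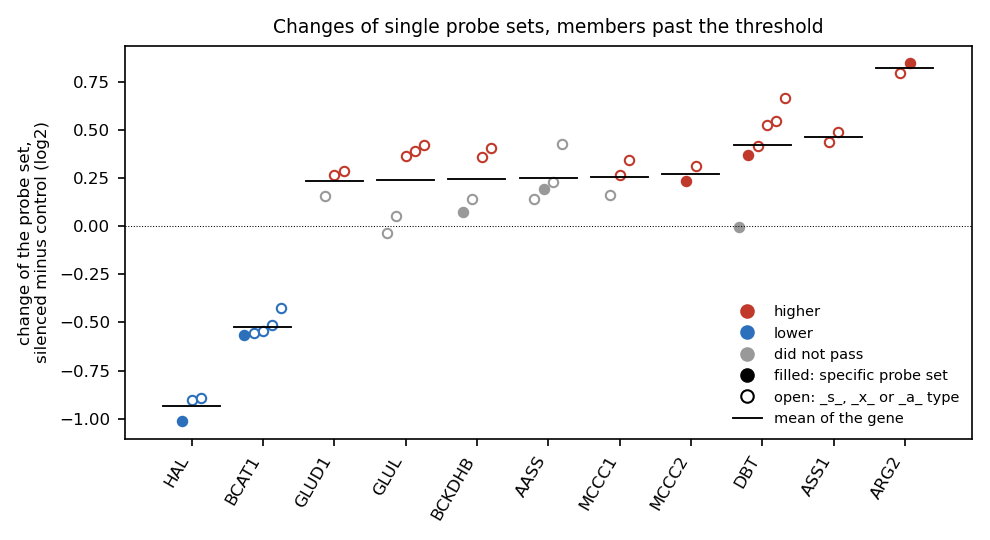
Change of each probe set (y axis, silenced minus control, log2) of the 11 members past the threshold that have several, with the mean of the gene as a line. Filled points are probe sets without the suffix _s_, _x_ or _a_ (types that can match several transcripts); HAL, BCAT1, ASS1, ARG2 and MCCC2 have all their probe sets past the threshold, and DBT, GLUL, BCKDHB, GLUD1 and MCCC1 some, and AASS none (0).

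Transcription regulators that are known to act on these enzymes also changed. Of 14 measured, 5 were higher, 2 lower and 7 did not pass, where 13.3% of all genes changed. FOXA1 and PPARGC1A, a liver pioneer factor and a coactivator of fasting genes, rose by 0.66 and 0.57 (limma adjusted p = 0.000241 and 0.000393). CEBPD rose by 0.54, KLF15, which drives amino acid breakdown in fasting, by 0.47 and FOXA3 by 0.41 (limma adjusted p = 0.014, 0.0156 and 0.00822). NR3C1, the glucocorticoid receptor, fell by 0.57 (limma adjusted p = 0.00178), with 9 of 10 probe sets past the threshold, and FOXO1 fell by 0.38 (limma adjusted p = 0.00585), with 2 of 4. FOXO1 had -0.77 with its most variable probe set, and with specific probe sets it did not pass, at -0.09 (limma adjusted p = 0.679). CEBPD did not pass without silenced replicate 3 (change 0.46), and KLF15 did not without control replicate 2 or 3 or silenced replicate 2 (change 0.38 to 0.44). Among 8 hepatocyte markers APOA1, SERPINA1 and FGB were higher, by 1.14, 0.40 and 0.20, 0 were lower and 5 did not pass. Their median was 0.16, and 13.3% of all genes changed. None (0) of the 4 probe sets of FGB passed alone (gene limma adjusted p = 0.0419). TF was the only 1 of the 8 with a change below 0. It had -0.19 without overlap of its groups and did not pass (limma adjusted p = 0.0752), and 1 of its 4 probe sets was lower alone. None of 13 markers of fibroblasts, endothelium and leukocytes passed (0, limma), and their changes lay between -0.21 and 0.19. The part of these regulators and markers in the changes of the enzymes was not tested.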

How the data were processed

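RNA from 6 samples of Huh7 cells, 3 labelled control and 3 labelled KCa3.1 silenced, was measured on 6 Affymetrix arrays. The deposited values are log2 values made by RMA, per the submitters' processing notes, and lie around a baseline of each probe set near 0. How the authors set this baseline, and the version of RMA, is not given in the sources used here.

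Of all probe sets 102 controls were left out, and 49293 were tested. Probe sets with 1 gene symbol in the platform annotation (44988) were averaged to 18132 genes. Silenced minus control was fitted with limma 3.58.1 (lmFit and eBayes, R 4.3.3) on the 6 arrays without covariates. P-values were adjusted over all genes by Benjamini-Hochberg with a threshold of 0.05, and intervals are at 95%. The deposited values hold no depth, and 3 arrays a group limit the precision. By rule, members past the threshold and their paralogs or partner subunits are given with each array, other members by change, and called neighbours and regulators by name. On simulated data, 80% of 100 genes changed by 0.5 and 97% of 100 changed by 1 on the log2 scale were recovered among 18132. Only those genes were changed there, with independent normal noise, while 13.3% of all genes were called in the data. The median size of change of the called members, 0.29, lay below both sizes, and recovery at that size was not simulated. The members and lists were chosen with earlier results of these data known, and the pairs of genes and the promoter motifs after their values were seen. Pairs were compared by exact permutation tests of the difference of the genes on each array. Alternatives were array medians, quantile normalization, the median or most variable probe set, specific probe sets, robust eBayes, a replicate block, each array left out and, added after seeing the data, a repeated symbol counted as 1 symbol.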

Additional observations from a re-analysis of the deposited data

How the results depend on the processing

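No called member changed sign in any of 14 alternative settings (0), and ARG2, ASS1, GOT1, HAL, HGD and OAT stayed past the threshold in each of them that could test them (ASS1, GOT1, HGD and OAT have no specific probe set). BCAT1 and DBT lost their call only with specific probe sets. Against 16 changed, 10 higher and 6 lower members, specific probe sets alone gave 2, 1 and 1. In that setting 7 members were without overlap, and 3 neighbours were higher and 0 lower. Only 16 members have such a probe set, and 7 of them were called in the main fit. Of these 7, ARG2 and HAL stayed past the threshold with specific probe sets. BCAT1, MCCC2, DBT, AASS and BCKDHB did not (limma adjusted p = 0.0508, 0.0751, 0.179, 0.318 and 0.74). The median change of the members, 0.071, was 0.043 with the median of probe sets, 0.035 with repeated symbols counted and 0.028 with specific probe sets; the cause was not tested. Leaving out each array gave 9 to 13 changed members, 5 to 7 higher, 4 to 6 lower, 26 to 30 without overlap and a median of 0.048 to 0.072, with 11 to 13 higher and 2 to 4 lower neighbours; fewer arrays enter each of these fits.

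Replicate numbers do not pair the samples, since deviations from the group means correlated at -0.096, -0.069 and -0.040 between same-numbered arrays, and at up to 0.381 between arrays of different numbers. With the replicate block, 10 members changed and 6 were higher, and BCAT2, BCKDHA, BCKDHB, GLUD1, GLUL and MCCC1 did not pass.

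The sign turned in genes that did not pass: AGXT to 0.0021 with the most variable probe set, 0.0011 with quantile normalization and 0.02 with specific probe sets; ASL to 0.0077 with the most variable and with specific probe sets; the change of FTCD to 0.0019 with array medians, 0.0204 with the median probe set, 0.038 with the most variable one and 0.000788 with quantile normalization; NAGS to 0.037 with specific probe sets; the change of PRODH2 to 0.00201 with array medians; and KCNN4 to 0.0034 with array medians, 0.021 with the most variable probe set and 0.0042 with quantile normalization. PYCR1, which passed, had 0.10 in its specific probe set. Leaving out each array gave -0.0182 to 0.00824 for AGXT, -0.0547 to 0.0633 for FTCD, -0.0912 to 0.0234 for GNMT, -0.0445 to 0.0548 for KCNN4, -0.131 to 0.0235 for NAGS and -0.1004 to 0.131 for PRODH2. The cause was not tested.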
